A study of Mus musculus with 4 samples.

Results

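DNA methyltransferases and Polycomb group genes were compared between mouse embryonic stem (ES) cells and extraembryonic endoderm (XEN) cells on 4 Affymetrix MG_U74Av2 arrays, 1 per culture, made from total RNA. The genes looked for were Dnmt1, Dnmt3a, Dnmt3b, Dnmt3l, Uhrf1, Jarid2, Eed, Ezh2, Phc1 and Rnf2, and each probe set whose annotation gave exactly 1 of these symbols was taken. The array had 12 such probe sets among 12488, for 8 of the 10 genes. Dnmt3b and Dnmt3l had none and are not analysed here. Dnmt1 and Dnmt3a had 2 probe sets each, Rnf2 had 3, and the other 5 genes had 1.

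The ES group was a single culture of the R1 line, kept undifferentiated with LIF on gelatin. Of the 3 XEN cultures, 2 were of the IM8A1 line, of the PO strain and at passage 27: IM8A1-I grew on gelatin in 70% EMFI-CM, and IM8A1-II spent 4 days in RPMI 1640/20%FBS on tissue culture plastic. XEN1-3 (ICR strain) was at passage 18, on gelatin in 70% EMFI-CM. A single ES array has no spread of its own, so the tests take the spread among XEN cultures for it. IM8A1-I and IM8A1-II share a line, so the 3 XEN arrays are not 3 independent lines. The ES array came from another chip lot and scan day than the XEN arrays, so that lot, day and cell type cannot be told apart. Line and culture medium also differ between the groups and cannot be told apart from cell type either.

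DNA methylation and Polycomb repression are the main ways in which a cell keeps genes silent through division. Dnmt1 copies CG methylation onto the new strand at replication, guided by Uhrf1, which binds hemimethylated DNA. Dnmt3a and Dnmt3b set methylation anew, with Dnmt3l as a cofactor without catalytic activity. Polycomb repressive complex 2 (PRC2) holds the methyltransferase Ezh2 and the core subunit Eed, which methylate lysine 27 of histone H3, and Jarid2, an accessory subunit abundant in ES cells that helps to recruit the complex. Polycomb repressive complex 1 (PRC1) holds Rnf2 (Ring1b), a ubiquitin ligase for histone H2A, and Phc1, a polyhomeotic subunit that can polymerise. ES cells use both systems at developmental genes, and extraembryonic lineages are known for lower DNA methylation than the embryo proper.

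The labels were checked against markers. By the brightest probe set of each gene, all 9 pluripotency markers (Pou5f1, Sox2 and Nanog among them) were lower in XEN. All 10 endoderm markers (among them Lama1 and Sparc) were higher. Over all tested probe sets, 10 of 11 pluripotency and 14 of 17 endoderm ones passed in these directions. The others, Pou5f1 161159_r_at, Gata6 93925_at, Pdgfra 160332_at and Dab2 98044_at, did not pass. Signal is given in arbitrary units, and 27.3 units, the 40th percentile of all values, served as a background limit. Of 14 fibroblast and feeder markers 9 reached the limit on an array and 1 of these, the dim Thy1, was lower in XEN, with the brightest probe set standing for a gene. Thy1 passed in 7 of 11 alternatives, and not without IM8A1-I (0.0973) or IM8A1-II (0.0883). A dimmer Col1a1 probe set, 94305_at, was lower too, at 114 in ES and 1.7 to 3.1 in XEN, at least 4.18-fold (adjusted p = 0.0104). Tagln read 538 in ES and 36.1 to 214 in XEN (adjusted p = 0.110). The brightest Col1a1 probe set, 103709_at, read 153 in ES and 68.0 to 95.5 in XEN and did not pass. Other markers went the other way without passing. Col1a2 read 206 in ES and 352 to 403 in XEN. Twist1 read 11.8 in ES, 156 on IM8A1-I and 87.5 on IM8A1-II, but 5.8 on XEN1-3. The summed signal of the 14 was 1168 in ES and 712 to 926 in XEN, with Col3a1, Postn, Fap, Dcn and Prrx1 under the limit on all arrays. Of 8 trophoblast markers on the array 5 were tested and 2 were lower, Tfap2c and Esrrb, which ES cells also express. Esrrb passed in 7 of 11 alternatives, and not without IM8A1-I (0.104) or IM8A1-II (0.105). Cdx2, Elf5 and Tpbpa lay under the limit on all arrays, and the summed signal was 979 in ES and 106 to 129 in XEN. The part of these cells in the results below was not tested.

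The Polycomb genes Jarid2, Phc1 and Eed fell in XEN cells. No DNA methyltransferase probe set passed the test in either direction, which does not show that these were unchanged. In all, 11 of the 12 probe sets reached the limit on at least 1 array and were tested. Of the 11, 3 fell, 0 rose and 8 did not pass limma's test at an adjusted p under 0.05. Over all 8582 probe sets tested, 5.05% fell and 5.58% rose. At an unadjusted p under 0.05, 6 of the 11 were lower in XEN and 0 were higher, against 14.5% and 15.1% of all tested probe sets. The genes were chosen with earlier results of these data known. The counts set beside shares of all probe sets, here and below, are therefore a description and not a test. ES lay above all 3 XEN arrays for 8 of the 11, below all of them for 2 and within their range for 1, against 34% above and 39.0% below over all tested probe sets. The median log2 difference, XEN minus ES, was -0.68 over the 11 probe sets and 0.05 over all tested probe sets. Over the 8 genes it was -1.07, with the probe set of highest mean log2 value standing for a gene. The 3 DNA methylation genes had a median of -0.68 and the 5 Polycomb genes one of -1.84. The difference between these families was not tested. The confidence interval of Dnmt3a, -2.78 to -0.02, holds the fitted differences of Eed (-1.84) and Phc1 (-2.75) but not that of Jarid2 (-3.53). The intervals of Dnmt1 and Uhrf1 hold none of them. In the wider lists described below the medians were -0.71 for DNA methylation, 0.12 for PRC2 and -0.10 for PRC1.

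**Figure D1:**
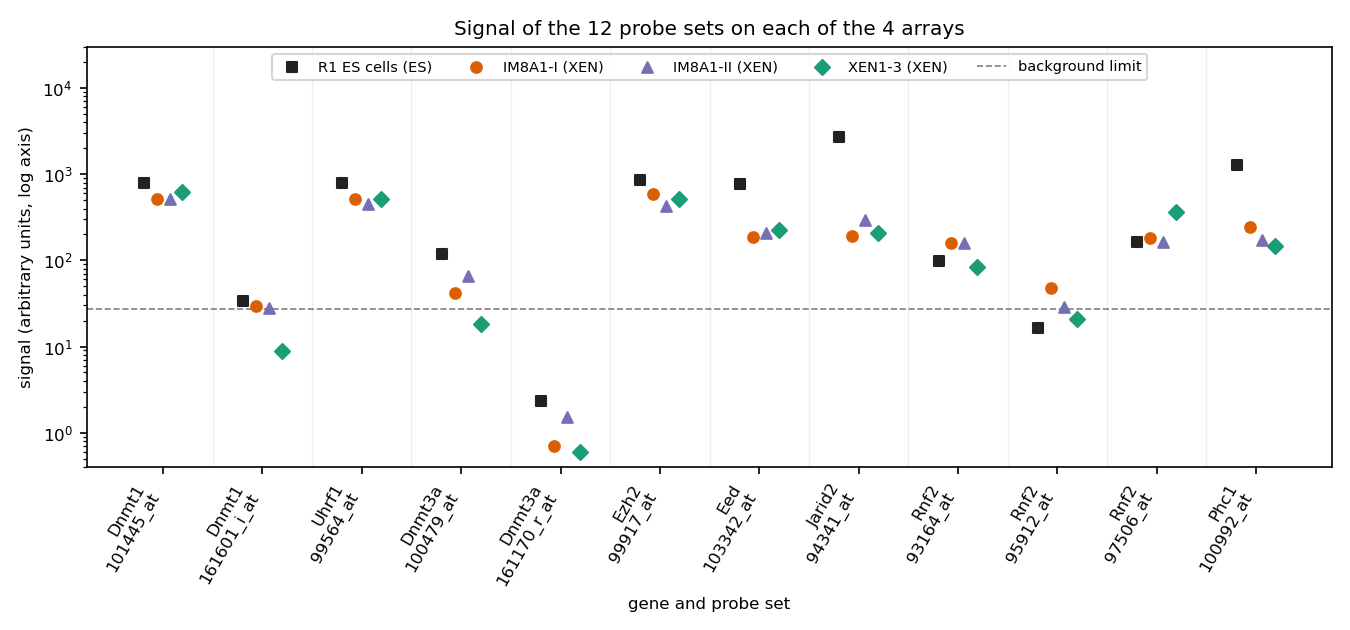
Signal (arbitrary units, log axis) of the 12 probe sets on the ES array and the 3 XEN arrays, with the background limit of 27.3 units as a dashed line. The ES square stands far above the XEN points for Jarid2 (2732 against 192 to 293), Phc1 (1295 against 147 to 243) and Eed (768 against 188 to 227), and among the Rnf2 probe sets XEN1-3 is the lowest array on 1 and the highest on another.

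Jarid2 differed most. Wherever 3 XEN values are listed together below, IM8A1-I comes first, then IM8A1-II, then XEN1-3. Its signal was 2732 on the ES array against 206 for XEN1-3, 192 for IM8A1-I and 293 for IM8A1-II, or 230.3 ± 54.8 in XEN (SD, n = 3). The XEN arrays lay close together and none came near ES. The fitted difference was -3.53 ± 0.33 in log2 (SE, limma adjusted p = 0.00596), an 11.6-fold fall with a 95% confidence interval of 6.57 to 20.4. Log2 values here were taken after adding 10.5 units, which understates the change of dim genes. Only 0.676% of the tested probe sets had a more negative difference.

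Phc1 read 1295 on the ES array, and IM8A1-I gave 243, IM8A1-II 174 and XEN1-3 147, or 188 ± 49.7 in XEN. All XEN cultures were low, IM8A1-I the least so. The difference was -2.75 ± 0.35 (adjusted p = 0.0115), a 6.72-fold fall with an interval of 3.69 to 12.2. With values raised to the background limit in place of the added offset its adjusted p was 0.0533.

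Eed measured 768 on the ES array against 227 for XEN1-3, 188 for IM8A1-I and 209 for IM8A1-II, or 208 ± 19.5 in XEN. The XEN arrays spanned 1.21-fold, the tightest of these 3 genes. The log2 difference of -1.84 ± 0.27 (adjusted p = 0.0166) amounted to a 3.57-fold fall, interval 2.25 to 5.67. Leaving out IM8A1-I (adjusted p = 0.0592) or IM8A1-II (0.0513) ended the call, with log2 differences of -1.77 and -1.84. The run record of XEN1-3 carries a message that no fluid was detected. Without that array the differences were -3.47 for Jarid2, -2.60 for Phc1 and -1.90 for Eed. This setting leaves only the cultures of the IM8A1 line, so its spread is that within a line. More probe sets passed in it than with all arrays, so a pass there is weak support.

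Ezh2, the catalytic subunit of PRC2, was lower in each XEN culture without passing. Its signal was 513 for XEN1-3, 589 for IM8A1-I and 433 for IM8A1-II, against 860 for ES, a difference of -0.75 ± 0.29 (unadjusted p = 0.0442, adjusted p = 0.156). The 95% interval for ES over XEN was 1.02-fold to 2.77-fold, which does not reach the fitted 3.57-fold of its partner Eed. The interval of Eed, 2.25-fold to 5.67-fold, overlaps that of Ezh2. The difference between the genes was not tested.

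**Figure D2:**
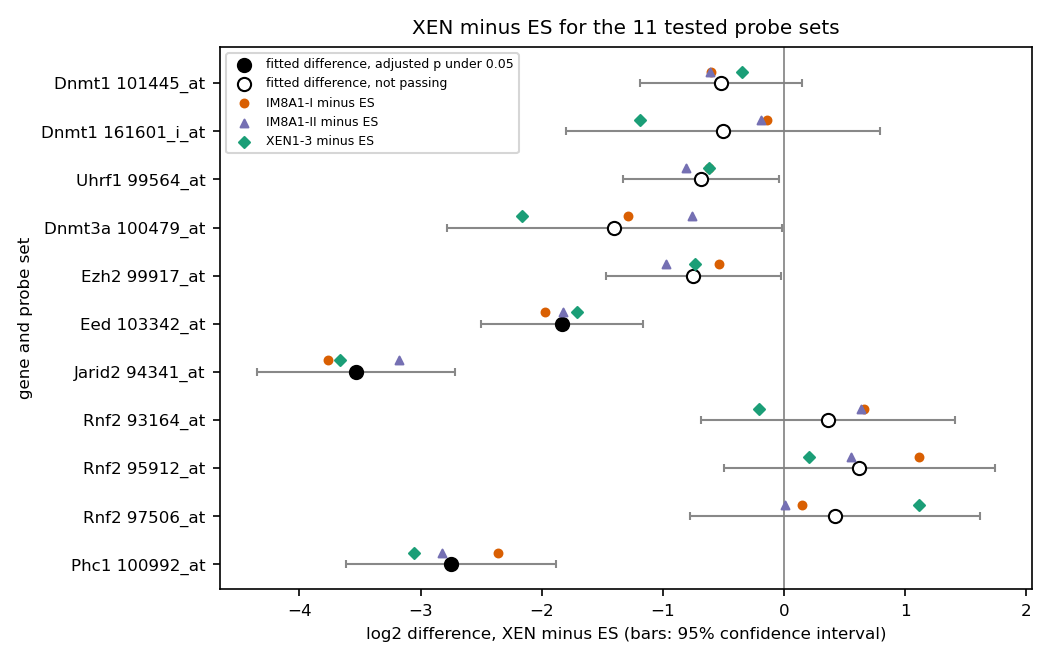
Log2 difference, XEN minus ES, of the 11 tested probe sets. Circles are the fitted differences with 95% confidence intervals, filled where the adjusted p was under 0.05, and small symbols are the single XEN arrays minus ES. Jarid2 (-3.53), Phc1 (-2.75) and Eed (-1.84) are filled, and the Dnmt1, Uhrf1, Dnmt3a, Ezh2 and Rnf2 probe sets are open.

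None of the 3 Rnf2 probe sets passed. On each the fitted difference was above 0 and IM8A1-I read higher than ES, while the place of XEN1-3 varied. IM8A1-II read higher than ES on 93164_at and 95912_at and was level with it on 97506_at (162.5 against 161.9). On 93164_at the signal was 97.5 in ES and 160, 157 and 83.2 in XEN. On 97506_at it was 162 in ES and 180, 163 and 363 in XEN. The dim 95912_at read 16.5 in ES and 48.0, 29.0 and 20.6 in XEN, with ES and XEN1-3 under the limit. XEN1-3 was thus the lowest array on the first of these and the highest on the second. The differences of 0.36 ± 0.42, 0.42 ± 0.48 and 0.62 ± 0.45 in log2 had adjusted p-values of 0.606, 0.601 and 0.403. Their 95% intervals were -0.68 to 1.41, -0.78 to 1.62 and -0.50 to 1.74, so that a change of 2-fold upward is within each of them. Which transcript each probe set reads was not examined here.

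The sequence before the transcription start is shown for the 3 genes that fell, because these are the members whose signal differed between the cell types. The windows hold the 250 bases upstream of the start, from RefSeq, build GRCm38.p6, on the gene's strand, 5′ to 3′, and capitals mark CG dinucleotides, the substrate of the Dnmt enzymes. For Jarid2, with 2 annotated starts, the upstream one is given.
Jarid2 (chr13:44730524-44730773, + strand): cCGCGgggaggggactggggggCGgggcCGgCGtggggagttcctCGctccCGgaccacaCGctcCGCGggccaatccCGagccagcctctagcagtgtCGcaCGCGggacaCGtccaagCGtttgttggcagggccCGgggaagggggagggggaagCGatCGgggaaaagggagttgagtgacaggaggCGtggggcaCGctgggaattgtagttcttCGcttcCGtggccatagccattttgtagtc
Phc1 (chr6:122340228-122340477, - strand): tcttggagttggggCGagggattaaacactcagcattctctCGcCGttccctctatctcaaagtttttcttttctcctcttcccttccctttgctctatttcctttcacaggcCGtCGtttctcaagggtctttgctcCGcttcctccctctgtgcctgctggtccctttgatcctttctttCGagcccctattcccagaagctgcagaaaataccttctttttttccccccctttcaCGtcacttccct
Eed (chr7:89980977-89981226, - strand): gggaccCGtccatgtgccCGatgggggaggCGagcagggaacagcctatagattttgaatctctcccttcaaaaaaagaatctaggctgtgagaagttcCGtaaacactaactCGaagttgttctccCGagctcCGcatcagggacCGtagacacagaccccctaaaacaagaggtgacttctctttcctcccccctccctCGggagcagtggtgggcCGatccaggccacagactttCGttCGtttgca
The Jarid2 window held 23 CG dinucleotides, more than 86.7% of all 32851 upstream windows in the table. Eed with 12 and Phc1 with 8 lay nearer the median of 6. The 10 genes matched 18 annotated starts, of which 14 had more CGs than that median, from 7 at a Dnmt1 start to 40 at a Dnmt3a start. All 3 Dnmt3l starts lay under the median, with 5, 4 and 3. The octamer ATGCAAAT, the letters bound by Pou5f1, was found on neither strand in any of the 18 windows, against 1.6% of all windows. An E2F-type site (TTTCGCGC, TTTGGCGC, TTTCCCGC or TTTGCCGC, either strand, none of them overlapping the octamer) was found at 1 start each of Dnmt1 and Uhrf1, against 1.86% of all windows. These matches describe letters and not binding, and no methylation was measured.

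Neither maintenance methylation gene passed the adjusted test. Dnmt1, on 101445_at, read 784 for ES, 615 for XEN1-3, 513 for IM8A1-I and 511 for IM8A1-II, or 546 ± 59.7 in XEN. ES was the highest array, with the XEN cultures 1.27-fold to 1.53-fold below it. The difference of -0.52 ± 0.27 did not pass (adjusted p = 0.261), and its interval of -1.19 to 0.15 holds both no change and a fall of 2-fold. The other Dnmt1 probe set, 161601_i_at, was dim at 33.6 in ES and 29.6, 28.2 and 8.9 in XEN, with a difference of -0.50 ± 0.53 (adjusted p = 0.564).

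Uhrf1, the cofactor of Dnmt1, read 511 for XEN1-3, 511 for IM8A1-I and 448 for IM8A1-II, against 792 for ES. The XEN cultures were alike, at 489.9 ± 36.1, and all were under ES. The difference was -0.68 ± 0.26 (unadjusted p = 0.0413, adjusted p = 0.150), or 1.61-fold with an interval of 1.03 to 2.51.

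Dnmt3a, a de novo methyltransferase, was the least even across the XEN cultures. Probe set 100479_at read 117 for ES, 18.1, under the limit, for XEN1-3, 41.9 for IM8A1-I and 65.2 for IM8A1-II. All XEN arrays were under ES, but they spanned 3.60-fold among themselves. The difference was -1.40 ± 0.56 (unadjusted p = 0.0478, adjusted p = 0.164), with an interval of -2.78 to -0.02. The probe set 161170_r_at lay under the limit on all arrays, at 0.60 to 2.3 units, and was not tested. At an unadjusted p under 0.05, 2 of the 4 tested DNA methylation probe sets were lower, where 14.5% of all tested probe sets were, and after limma's adjustment 0 were.

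Dnmt1, Uhrf1 and Ezh2 are usually higher in cycling cells, so the proliferation genes are given beside them. Of 22 tested proliferation genes 3 fell (Cdc20, Ccne1 and Prim1), 0 rose and 19 did not pass. Cdc20 passed in 6 of 12 alternatives, Ccne1 in 9 and Prim1 in 5, and none of them without IM8A1-I (0.0773, 0.110 and 0.131) or IM8A1-II (0.0861, 0.105 and 0.0941). The median log2 difference of the 22 was -0.50, near those of Dnmt1, Uhrf1 and Ezh2, and their summed signal was 18361 in ES and 11782 to 12912 in XEN. Examples are the replication helicase gene Mcm5, at 2121 and 1127 ± 76.1 (-0.91 ± 0.25, adjusted p = 0.0762), and the cyclin-dependent kinase gene Cdk1, at 1245 and 1060 ± 91.3 (-0.23 ± 0.26, adjusted p = 0.588). Their part in the values of Dnmt1, Uhrf1 and Ezh2 was not tested.

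The other PRC2 genes divided. Of 11 tested genes, each read by its brightest probe set, 2 fell, 0 rose and 9 did not pass, with a median of 0.12. Over all 19 tested probe sets of these genes 4 fell and 2 rose. Mtf2, a Polycomb-like accessory subunit, read 1253 for ES, 224 for XEN1-3, 202 for IM8A1-I and 181 for IM8A1-II, a difference of -2.58 ± 0.27 (adjusted p = 0.00793). Its XEN arrays lay together, far under ES, and the other tested Mtf2 probe sets fell too, 103657_i_at with a log2 difference of -2.82 (adjusted p = 0.00680) and 103658_r_at by at least 4.7-fold (adjusted p = 0.0144). Rbbp4, a histone-binding subunit that PRC2 shares with other complexes, stood at 1474 in ES and 229, 282 and 488 in XEN, a difference of -2.18 ± 0.45 (adjusted p = 0.0382). It passed in 7 of 12 alternatives, and not without IM8A1-I (0.0816) or IM8A1-II (0.0862), nor with the IM8A1 line counted once (0.0646). The probe sets that rose were those of Eloc (elongin C), whose product binds Epop. On 94009_at Eloc read 30.7 in ES and 102, 102 and 94.7 in XEN (1.41 in log2, adjusted p = 0.0320), and on 94010_g_at 3.4 in ES and 53, 70 and 93.5 in XEN, at least 2.57-fold higher (adjusted p = 0.0175). Its brightest probe set, 94008_at, read 139 in ES and 232, 205 and 231 in XEN and did not pass (0.64 ± 0.27, adjusted p = 0.177). The 94009_at call ended without IM8A1-I (0.0912) or IM8A1-II (0.0865), and that of 94010_g_at without IM8A1-II (0.0509). Rbbp7, the paralogue of Rbbp4, was at 2831 in ES and 3413 ± 849.9 in XEN (0.24 ± 0.35, adjusted p = 0.694). Suz12, the third core subunit, was at 238 and 247 ± 32.5, a difference of 0.04 ± 0.29 (adjusted p = 0.940) whose sign turned with median scaling. The accessory subunit gene Epop stood at 496 in ES and 1072, 1094 and 1529 in XEN, 1.28 ± 0.31 in log2, and did not pass (adjusted p = 0.0580). Eloc, Rbbp7, Suz12 and Epop were chosen for mention after their values were seen.

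**Figure D3:**
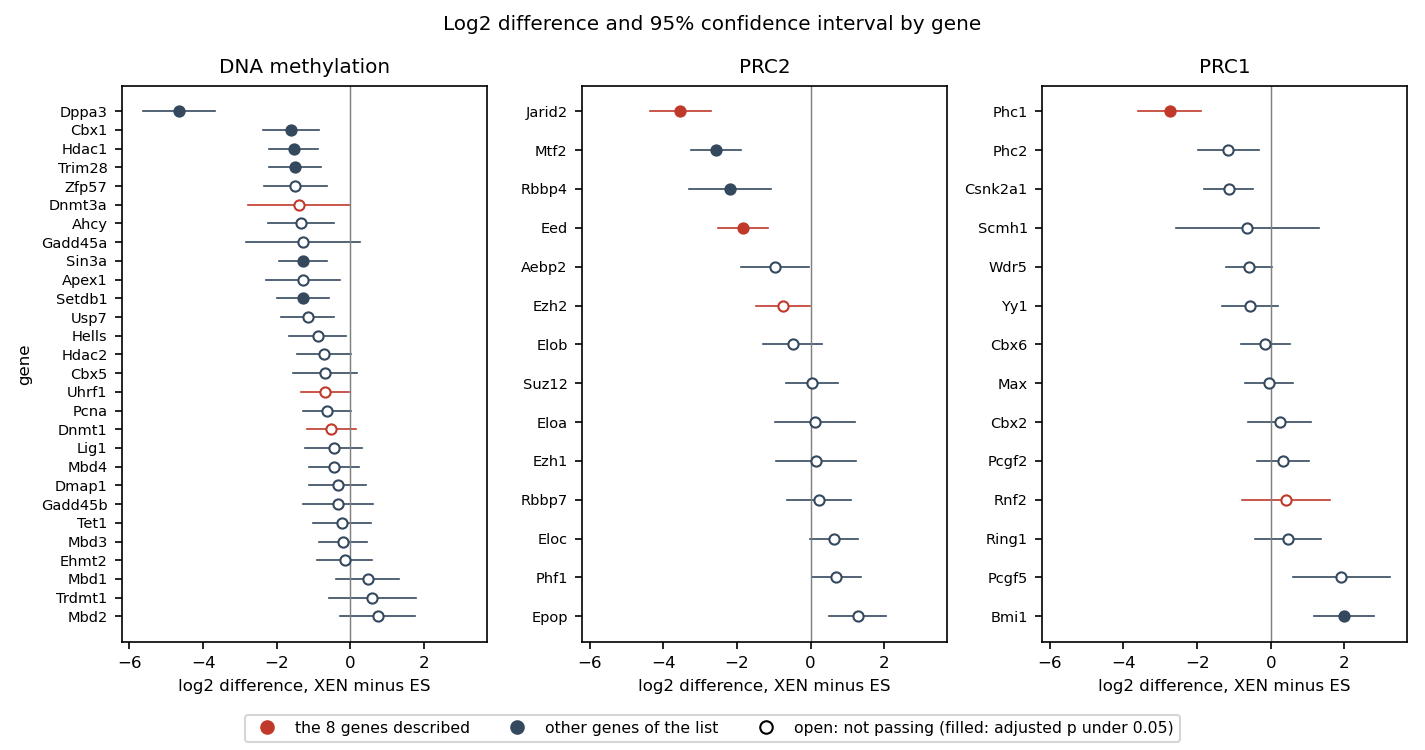
Log2 difference, XEN minus ES, with 95% confidence intervals for tested genes of DNA methylation, PRC2 and PRC1, 1 probe set per gene. Red marks the 8 genes described, and filled circles passed at an adjusted p under 0.05. In PRC2, Jarid2, Mtf2, Rbbp4 and Eed are filled on the left while Suz12 lies at 0.04 (-0.05 with median scaling). In PRC1, Phc1 is filled on the left and Bmi1 on the right.

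Among 12 other PRC1 genes tested, 1 rose, 0 fell and 11 did not pass, with a median of -0.10. Over their 19 tested probe sets 1 rose and 1 fell. The gene that rose was Bmi1, a RING partner of Rnf2, at 38.5 for ES against 174 for XEN1-3, 237 for IM8A1-I and 155 for IM8A1-II. All XEN cultures were above ES, and the log2 difference was 2.0 ± 0.33 (adjusted p = 0.0224). The call ended when IM8A1-I was left out (0.0538) or values were raised to the limit (0.0619). Pcgf5, of the same family as Bmi1, read 60.9 in ES and 185, 454 and 204 in XEN (1.92 ± 0.53, adjusted p = 0.0771). Phc2, a paralogue of Phc1, was dim, at 64.5 in ES and 26.2, 24.8 and 19.2 in XEN, all under the limit. It did not pass (adjusted p = 0.0845). Only with dim values raised to the limit did Phc2 pass. That setting made its XEN values equal, so the pass is no support. Cbx2, which reads methylated histone H3, gave different answers on its probe sets. On 97723_at it was at 32.9 in ES and 41.4 ± 8.62 in XEN (adjusted p = 0.674), and on 102833_at at 87.9 in ES and 22.0, 19.2 and 12.5 in XEN, at least 3.22-fold lower (adjusted p = 0.0369). The latter passed in 6 of 12 alternatives, and not without IM8A1-I (0.0773) or IM8A1-II (0.0795). Pcgf5, Phc2 and Cbx2 were also picked after their values were seen.

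In the wider DNA methylation list, 6 of 25 tested genes fell, 0 rose and 19 did not pass. The median was -0.71. Over all 32 tested probe sets 7 fell and 0 rose, the seventh being 93186_at of the methylcytosine dioxygenase gene Tet1 (adjusted p = 0.0368), whose brighter probe set did not pass (adjusted p = 0.663). The 93186_at call ended without IM8A1-I (0.0905) or IM8A1-II (0.0771), and this probe set was picked after its values were seen. Dppa3 (Stella), which protects methylation in the early embryo, was at 380 in ES and 2.2, 4.4 and 8.9 in XEN, all under the limit, so at least 13.9-fold lower (adjusted p = 0.00478). Trim28 (Kap1), the corepressor that keeps imprints and retroelements silent, went from 7092 to 2524 ± 403 units, or -1.5 ± 0.28 in log2 (adjusted p = 0.0312). Hdac1, a histone deacetylase, went from 383 to 125 ± 10.2 (-1.55 ± 0.27, adjusted p = 0.0249). Cbx1, a heterochromatin protein, went from 301 to 92.2 ± 17.2 (-1.61 ± 0.30, adjusted p = 0.0311). The other 2 that fell were Setdb1, a histone methyltransferase that works with Trim28, by 1.28 (adjusted p = 0.0463), and the corepressor gene Sin3a, by 1.29 (adjusted p = 0.0381). Of these 6, Dppa3 passed in all 12 alternatives, Hdac1 in 10, Trim28 and Sin3a in 9, Cbx1 in 8 and Setdb1 in 6. Without IM8A1-I, Hdac1 (0.0793), Cbx1 (0.0876), Trim28 (0.0821), Setdb1 (0.124) and Sin3a (0.112) did not pass, and without IM8A1-II Hdac1 (0.0627), Cbx1 (0.0545), Setdb1 (0.0862) and Sin3a (0.0972) did not. Counting the IM8A1 line once ended the calls of Setdb1 (0.0719) and Sin3a (0.0784).

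Genes of marks that oppose or edit Polycomb repression were also read. Of 8 tested, 1 fell, 0 rose and 7 did not pass, with a median of -0.83. Asxl1, which works with a deubiquitinase of histone H2A, went from 479 in ES to 175, 152 and 218 in XEN, by 1.36 ± 0.31 in log2 (adjusted p = 0.0477). It passed in 6 of 12 alternatives, and not without IM8A1-I (0.123) or IM8A1-II (0.112), nor with the IM8A1 line counted once (0.0879). Its other probe set, 104261_at, did not pass (-0.83, adjusted p = 0.235).

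The XEN cultures were also set against each other. Single arrays were compared here, with no replicate check. Between the IM8A1 cultures, which share a line and differ in medium and substrate, 0 of the 11 probe sets were at least 2-fold apart, against 5.98% of all tested. The widest gap was that of Jarid2, at 0.59 in log2, with IM8A1-II the higher. Between XEN1-3 and IM8A1-I, which share the medium and differ in line, strain and passage, 1 of 11 was at least 2-fold apart, against 9.11% of all. XEN1-3 is also the array whose run record carries the fluid message. That was the dim Dnmt1 probe set 161601_i_at, at -1.05, with XEN1-3 under the limit. The median size of the difference was 0.18 for the members and 0.27 for all tested probe sets between the IM8A1 cultures, and 0.69 and 0.32 between XEN1-3 and IM8A1-I. The latter rested on the Rnf2 probe sets (-0.87, -0.91 and 0.97), Dnmt3a (-0.87) and Phc1 (-0.69), whereas Uhrf1 (0.00) and Jarid2 (0.10) stood at nearly the same level in both lines. On the Rnf2 probe sets and 161601_i_at of Dnmt1, the gap between XEN1-3 and IM8A1-I was wider than the fitted one between XEN and ES. How common this is over all tested probe sets was not computed.

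**Figure D4:**
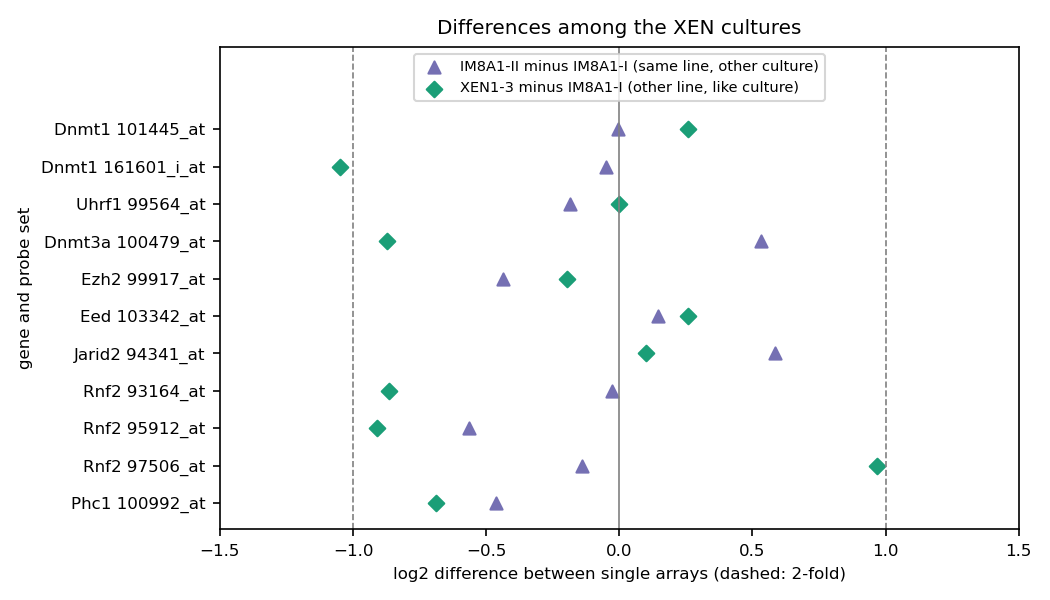
Log2 differences between single XEN arrays for the 11 tested probe sets, with 2-fold marked by dashed lines. Triangles (IM8A1-II minus IM8A1-I) stay within 0.59 of 0, and diamonds (XEN1-3 minus IM8A1-I) reach from -1.05 to 0.97, with the Rnf2 probe sets on both sides.

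The genes whose log2 profiles over the 4 arrays, centred on their means, lay nearest to Jarid2 were Wwc1, Sema4d and Crmp1, at Euclidean distances of 0.20, 0.25 and 0.25 among 6343 genes. Wwc1 stood at 337 in ES and 20.7, 31.9 and 20.7 in XEN. Nearest to Dnmt3a were C2cd3, Tes and Slc2a1, at 0.17, 0.23 and 0.26. The glucose transporter gene Slc2a1 read 1108 in ES and 480, 717 and 310 in XEN, the same order of arrays as Dnmt3a. With 4 arrays such likeness is a description only.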

How the data were processed

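Each probe set has 1 deposited value per array, an intensity that is linear and not logged; no source used here names the program that computed it. All 4 arrays had a 2% trimmed mean of 150.1 as deposited, so scaling had taken place before, and repeating it here moved nothing. Chip lot, scan day and fluidics messages are other text per the file headers. Symbols came from the supplied platform annotation. All 12 probe sets of the genes described matched the RefSeq table by gene ID.

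The 66 control probe sets were left out, 10.5 units (the 25th percentile) were added and log2 was taken. Probe sets with at least 1 array at or above the 40th percentile were tested. The comparison of XEN with ES used lmFit and trended eBayes of limma 3.58.1 in R 4.3.3 (residual degrees of freedom 2, prior 3.76), two-sided. Adjusted p-values (Benjamini-Hochberg) covered all 8582 probe sets, with a threshold of 0.05. The code was tested on simulated data. The p-values set the difference between XEN and ES against the spread among the XEN arrays, moderated over probe sets. They hold no spread between ES cultures. A fold against a group wholly under the limit is a bound, the brighter value over 27.3 units. Array number limits the precision.

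Every probe set of the genes described is reported. From each of 6 wider lists (other DNA methylation, PRC2, PRC1, opposing marks, germline and Hox genes) up to 4 genes past the threshold are named, or else up to 2 of smallest p, with exceptions said. The genes and lists were chosen with earlier results of these data known. The 12 alternatives covered offset, scaling, filter, dim values, variance model and XEN arrays. Figures were drawn with matplotlib 3.10.9.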

Additional observations from a re-analysis of the deposited data

How the results depend on the processing

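Over all probe sets, 479 rose and 433 fell. Raising dim values to the limit gave 240 and 536. Leaving out 1 XEN culture gave 185 to 778 that rose and 181 to 710 that fell, the highest counts without XEN1-3. Of the 11 probe sets of the genes described, 3 fell in 9 of the 12 alternatives and 2 in the others (values raised to the limit, without IM8A1-I, without IM8A1-II), and 0 rose in each. Jarid2 passed in all 12, Phc1 in 11 and Eed in 10, with log2 differences of -3.71 to -3.33, -2.94 to -2.52 and -1.94 to -1.67 and adjusted p of 0.00251 to 0.0281, 0.00501 to 0.0533 and 0.00920 to 0.0592. Dnmt1, Uhrf1, Dnmt3a, Ezh2 and Rnf2 passed in none of the alternatives that tested them, the smallest adjusted p being 0.0932, for Uhrf1. Of 74 log2 differences followed, 1 changed sign, that of Suz12 (94044_at), to -0.0536 with median scaling, -0.0112 with the IM8A1 line counted once, and -0.0132 and -0.0093 without IM8A1-I or IM8A1-II, with 0.153 without XEN1-3. Counting the IM8A1 line once gave 348 that rose and 319 that fell, with Jarid2 (0.00997), Phc1 (0.0201) and Eed (0.0391) passing. The counts at least 2-fold apart between XEN cultures were the same under median scaling, quantile normalization and no filter. Dim probe sets (Dnmt1 161601_i_at, Rnf2 95912_at, Dnmt3a 161170_r_at) lie near or under the limit, so that differences on them are uncertain. This includes the gap between XEN1-3 and IM8A1-I on 161601_i_at. No paired analysis was possible because the ES group has 1 array.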

Other observations

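Genes that these systems are known to silence were also read. Of 31 Hox genes on the array, classical Polycomb targets, 14 reached the background limit on at least 1 array and 17 did not. Among the 14, 0 passed limma's test (1 at an unadjusted p under 0.05), with a median log2 difference of 0.41. Hoxb6 read 49.7 for ES, 101 for XEN1-3, 98.3 for IM8A1-I and 85.6 for IM8A1-II (0.81 ± 0.28, adjusted p = 0.121), above ES in all 3. Hoxc9 read 5.1 in ES and, on IM8A1-I, IM8A1-II and XEN1-3, 33.3, 13 and 34.2 (adjusted p = 0.184).

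Of 20 germline genes known for promoter methylation in somatic cells, 5 were on the array and 2 were tested, with 0 passing limma's test and 1 at an unadjusted p under 0.05. Ddx4 (Vasa) stood at 48.2 in ES and 4.30, 8.20 and 9.70 in XEN, all under the limit, which bounds the fold at 1.77. Its adjusted p was 0.0563. It passed in 6 of 11 alternatives, 1 of them with dim values raised to the limit, which made its XEN values equal. Dazl gave different readings on its probe sets. On 160357_at it was at 33.1 in ES and 38.3, 47.5 and 35.6 in XEN (adjusted p = 0.691). On 94750_at it was at 37.2 in ES and 3.90, 2.40 and 5.10 in XEN (adjusted p = 0.0593). The latter XEN values were all under the limit, which bounds the fold at 1.36.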
